A study of Rattus norvegicus with 12 samples.

Results

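Astrocyte identity and reactivity genes were followed in the brains of blast-exposed rats through a list of 33 genes, 22 that mark astrocytes or are enriched in them and 11 that are raised in reactive astrocytes. They were found by symbol in the table of counts. Of the 17494 genes in the table, 32 were members, which were 21 identity genes and all 11 reactive genes. Hepacam, the remaining identity gene, is not analysed here outside the promoter search. Gfap and Aqp4, the markers of the list, had counts in all 12 libraries.

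Astrocytes take up potassium and transmitters around synapses, carry water and ions at endfeet on blood vessels, and feed and shape synapses through secreted proteins. After injury they become reactive: they build up intermediate filaments and can raise acute phase, matrix and iron-handling proteins. Oncostatin M and related cytokines drive part of this program through the shared receptor chain gp130 and the transcription factor Stat3.

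RNA was sequenced from 12 male Long-Evans rats, all labelled WT and all exposed to 3 blasts, 1 per day, at 10 weeks of age. From week 2 after blast, when the diet began, until sacrifice 29 weeks after blast, 6 rats ate chow holding boldine, an alkaloid of the boldo tree that blocks connexin hemichannels, and these are the blast-boldine rats. The other 6, the blast-control rats, ate the same chow without boldine in that time. The study's methods also name the boldine chow as the diet of a habituation period before the procedures. Rats of the study went through object recognition and cued fear conditioning tests before sacrifice. No sham or unblasted rats are among the samples, so the comparison is of boldine against no boldine after blast and not of blast against no blast. The labels give the tissue as brain and the study's methods give it as hippocampus, with 1 library of ribosome-depleted total RNA per rat.

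Counts on genes summed to between 10148474 and 40850106 in 11 libraries and to 74008 in that of blast-control rat 6. After TMM normalization 1 count was worth 15.8 CPM (the count scaled by library size) in rat 6, so 3 counts, the smallest value taken as detected, stood for 47.5 CPM there and for at most 0.307 CPM elsewhere; these floors cover counting error only. Values are therefore given for the other 11 rats, and each test with and without rat 6. The library names carry suffixes from 1 to 6, each used by 2 libraries. No label or method names such sets, so the 2 sets, called sheets here, are inferred, and whether the libraries were laid out so was not tested. Each sheet was taken to hold every suffix without repeats, in ascending order of rat number, which leaves 4 divisions, and that with rats 1, 7, 9, 20, 32 and 35 in sheet 1 and the others in sheet 2 accounted for 95.1% of the first principal component, and treatment for 1.53%. Each sheet held 3 rats of each treatment, and as the division was picked from the data, differences between sheets are described without a test.

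Stat3 is itself a member, so the 250 bases upstream of each member's start were searched for the letters TTCNNNGAA, the site STAT dimers bind, which reads the same on both strands. Of the 31 of 33 members with an entry in the RefSeq promoter table (build GRCr8), 5 held it, or 16.1%, against 7.67% of all 33469 entries. These were 3 of 20 identity genes, with Hepacam among the 20, and 2 of 11 reactive genes. Members were counted by gene, with a match in any entry of the gene, and the background by single entry. The 2 shares are therefore not counted alike. No other motif was searched, and a match is a description of letters. The matches are shown with the 25 bases around them where the window holds that many, on the strand of the gene, with the motif in capitals, because the pathway that ends in Stat3 is one of those described.
Serpina3n (chr6:129088244-129088302, plus strand): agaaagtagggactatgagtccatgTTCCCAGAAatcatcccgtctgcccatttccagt
Steap4 (chr4:27054802-27054860, minus strand): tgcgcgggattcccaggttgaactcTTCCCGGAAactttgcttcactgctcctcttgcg
Ntsr2 (chr6:45153016-45153074, plus strand): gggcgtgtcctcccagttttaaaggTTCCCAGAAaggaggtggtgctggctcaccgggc
Ppp1r3c (chr1:243878727-243878777, minus strand): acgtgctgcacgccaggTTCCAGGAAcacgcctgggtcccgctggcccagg
Acsbg1 (chr8:63943455-63943513, minus strand): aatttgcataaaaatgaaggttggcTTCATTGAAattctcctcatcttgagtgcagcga

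Astrocyte identity genes were abundant and most reactive genes were scarce in both blast-boldine and blast-control rats, and no gene of either kind passed the test between them. Per length, as mean TPM (counts scaled by gene length and library size) over the 11 rats, the identity genes ran from Sparcl1 at 1997 ± 300 (SD, n = 11) and Cst3 at 1954 ± 826 down to Slc39a12 at 10.3 ± 8.59. The reactive genes ran from Stat3 at 39.2 ± 3.47 down to Serpina3n at 0.093 ± 0.0903. No member had an adjusted p under 0.05 in edgeR's quasi-likelihood test, and neither did any of the 12325 genes tested, a share of 0.0%. At an unadjusted p under 0.05, 1.07% of the genes tested were called and 0 members were, among the 21 identity and 9 reactive genes that passed the filter on low counts. DESeq2 called 0.542% of 15690 genes at that level and 0 members. Without rat 6 the same was found in edgeR (1.4% of genes, 0 members), and the same with the sheet as a term, with 12 rats (3.85%, 0 members) and without rat 6 (5.35%, 0 members). In DESeq2 without rat 6, 1.78% of genes and 1 member, Lcn2, were called. In bulk tissue, fewer astrocytes and less RNA per astrocyte cannot be told apart.

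The blast-boldine and blast-control ranges overlapped for all 32 members, with and without rat 6. Of all genes tested, 0.0811% did not overlap with 12 rats and 0.152% without rat 6. The median log2 fold change of the identity genes, blast-boldine over blast-control, was -0.05 against 0.00 over all genes, and 15 of 21 lay below 0. That of the 9 tested reactive genes was 0.05, and 6 of 9 lay above 0. Without rat 6 the medians were -0.10 and 0.08, and with the sheet as a term as well they were -0.07 and 0.08. Leaving out each rat in turn, the identity median ran from -0.14 to 0.02 and the reactive median from -0.03 to 0.18, so neither kept its sign.

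**Figure D1:**
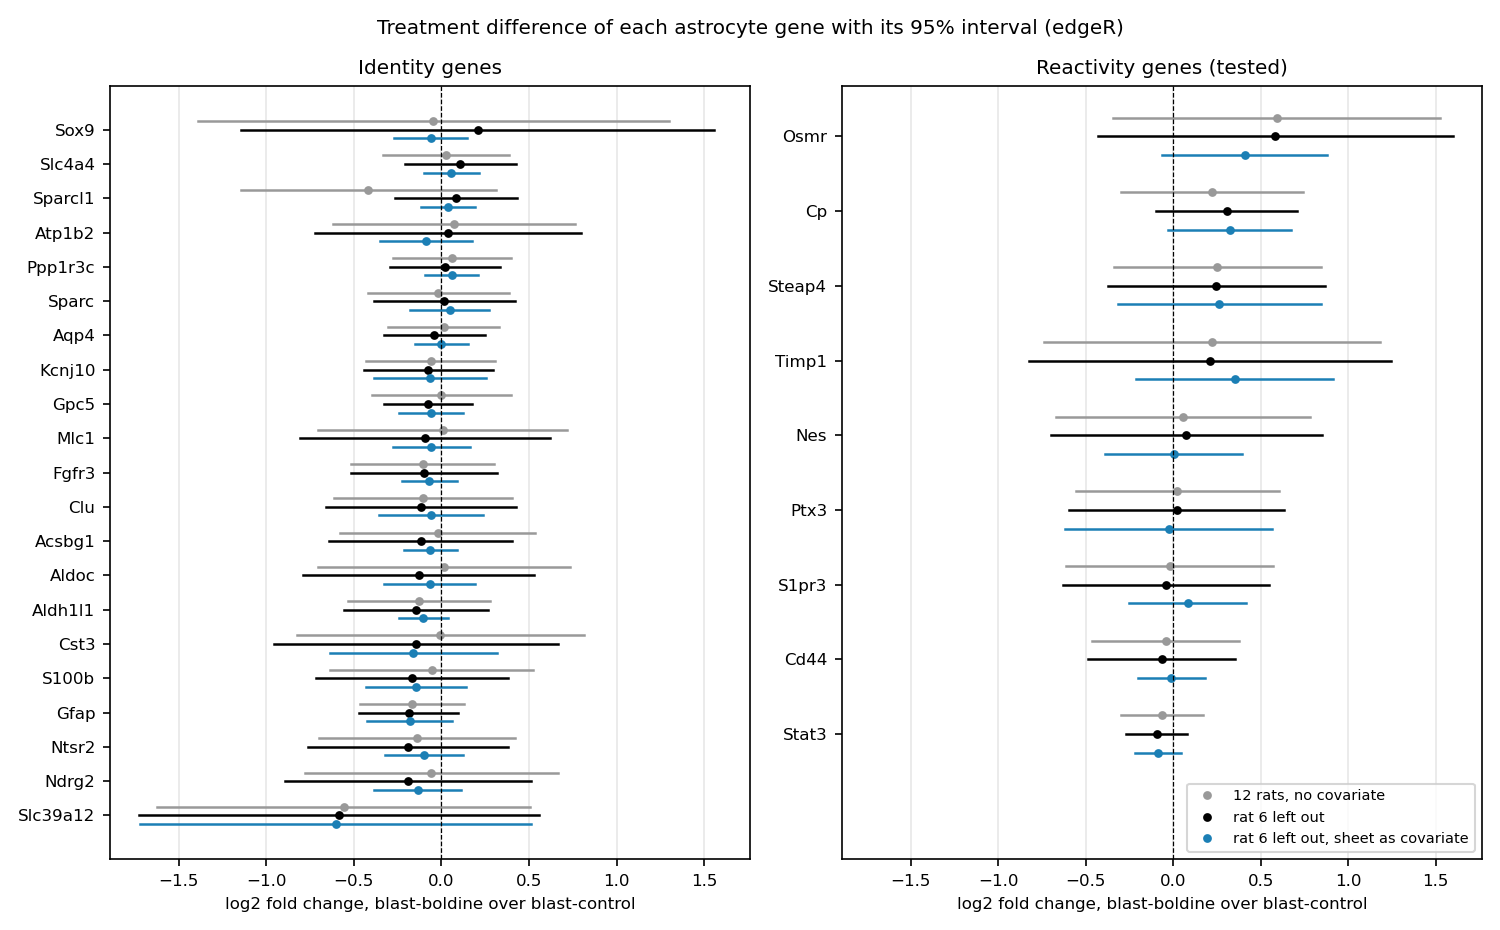
Log2 fold change of each tested member, blast-boldine over blast-control, from edgeR, with 95% intervals as bars, for 12 rats, without rat 6, and without rat 6 with the sheet as a term, with identity genes in 1 panel and reactive genes in the other. All but Slc39a12 of the identity intervals lie within 1 log2 unit of 0 with the sheet as a term, and every interval drawn spans 0.

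How large a difference could have gone unseen is given by these intervals. With 12 rats and treatment alone, the 95% interval of the log2 fold change lay within 1 unit of 0 for 18 of 21 identity genes and 7 of 9 reactive genes, at a median width of 1.11 and 1.18. With the sheet as a term and without rat 6, it did so for 20 of 21 and 9 of 9, at a median width of 0.444 and 0.785. The sheets were inferred and picked from these same data, so these narrower intervals may understate the difference that could have gone unseen. In this last fit, only the interval of Slc39a12 reached beyond 1 unit among the identity genes, from -1.72 to 0.51.

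Gfap, an intermediate filament protein used to mark astrocytes, is annotated on the minus strand of chromosome 10 (87852891 to 87861565 in mRatBN7.2). It is counted here with the identity genes, though reactive astrocytes also build it up. The Gfap level was 956 ± 159 CPM (SD, n = 6) in blast-boldine rats, with a lowest, median and highest value of 815, 927 and 1247 CPM. In the 5 blast-control rats other than rat 6 it was 1084 ± 140 CPM, with 933, 1086 and 1285 CPM. The ranges overlapped, and 1 of 6 blast-boldine rats was above the blast-control median. Blast-boldine over blast-control was -0.17 on the log2 scale in edgeR (SE 0.14, adjusted p 1.0), -0.19 (SE 0.13) without rat 6, and -0.18 (SE 0.11, 95% interval -0.42 to 0.06) with the sheet as a term and without rat 6. The difference stood in sheet 2, where the blast-boldine rats had 815, 822 and 919 CPM and the blast-control rats 974, 1014 (rat 6, 64 counts) and 1285 CPM, with no overlap. In sheet 1 the blast-boldine rats had 936, 994 and 1247 CPM and the blast-control rats 933, 1086 and 1144 CPM, which overlap. The exact permutation p within sheets was 0.16, and whether the sheets differ in their response was not tested. Without rat 6, groups were also apart within sheet 2 for Aldh1l1, Fgfr3, S1pr3 and Lcn2. Within sheet 1 they were apart for Ppp1r3c, Osmr and Stat3. Blast-boldine rats were the lower for Aldh1l1, Fgfr3 and Stat3 and the higher for the rest. A sheet holds few rats, so groups can lie apart in it by chance. The share of all genes apart in this way was not counted, so these genes are listed as a description and not as treatment differences.

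Aqp4, the water channel of endfeet, was measured at 767 ± 101 CPM in blast-boldine rats and 786 ± 125 CPM in the 5 blast-control rats, with ranges of 637 to 898 and 616 to 904 CPM. These ranges nearly coincided. The log2 fold change was 0.01 (SE 0.15) with 12 rats and -0.00 (SE 0.07, 95% interval -0.15 to 0.15) with the sheet as a term and without rat 6.

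**Figure D2:**
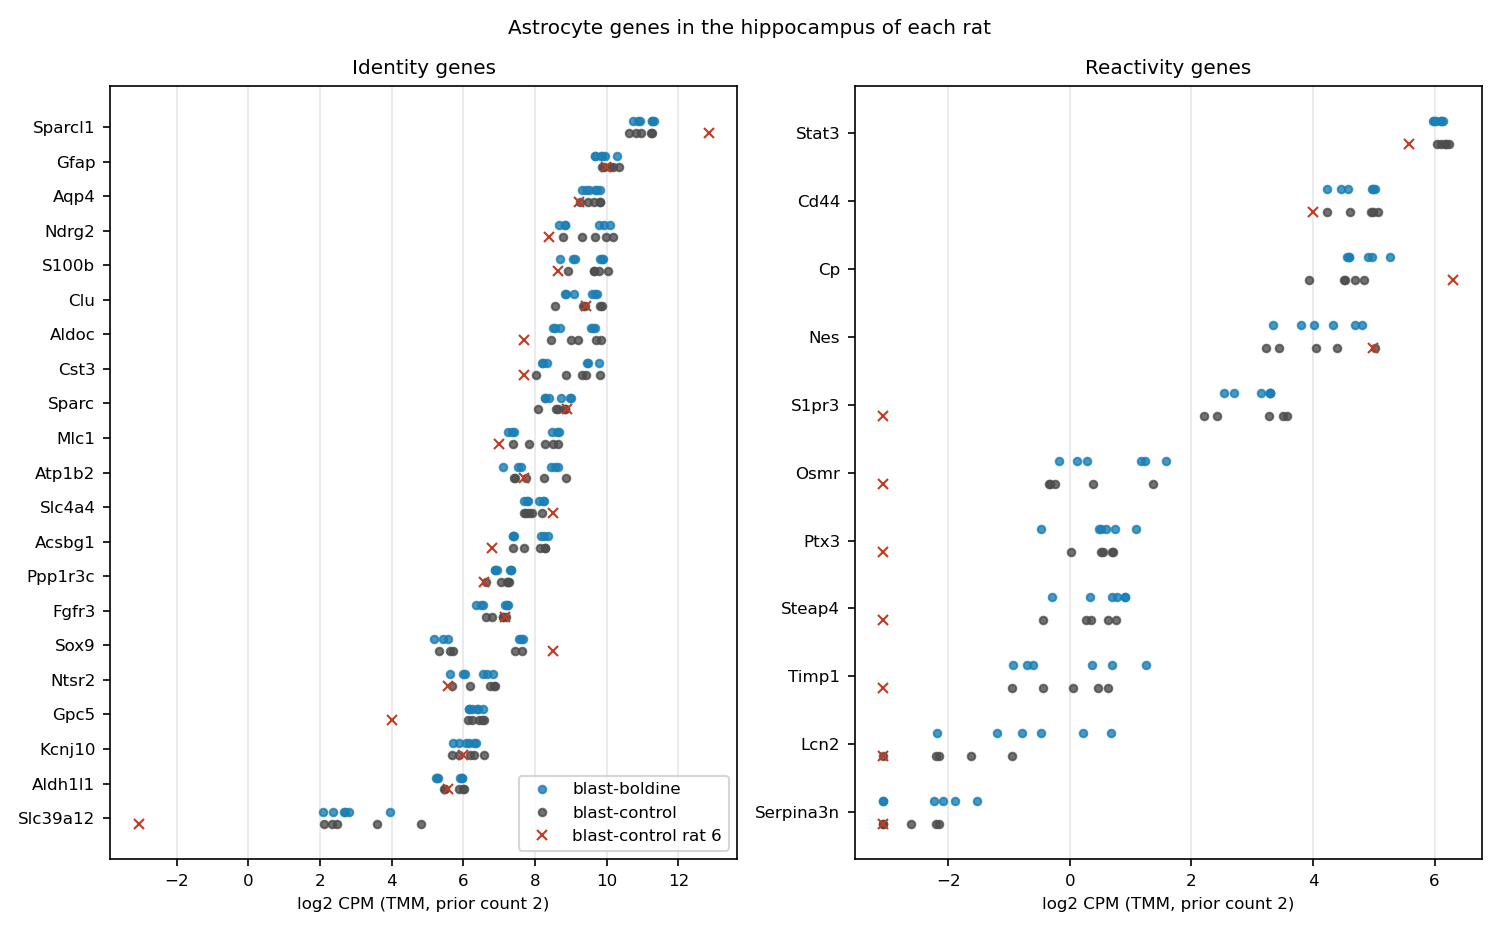
Level of each of the 32 members in every rat as log2 CPM with a prior count of 2, identity and reactive genes in separate panels with their own axes, with 1 point per rat coloured by treatment, rat 6 as a cross and values of 0 counts at the left edge. Blast-boldine and blast-control points overlap for every gene, and rat 6 is at the left edge for 7 of the 11 reactive genes.

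The other endfoot and ion genes showed the same overlap. Kcnj10, the inward rectifier channel Kir4.1 that clears potassium, had 52.7 to 81.0 CPM in blast-boldine rats and 51.2 to 95.4 CPM in blast-control rats without rat 6, at a log2 fold change of -0.06 (SE 0.17). Slc4a4, a sodium bicarbonate cotransporter, had 204 to 305 and 208 to 292 CPM (0.03, SE 0.17). Atp1b2, a beta subunit of the sodium pump, had 139 to 399 and 171 to 468 CPM (0.07, SE 0.32). Mlc1, a membrane protein of perivascular endfeet, had 152 to 410 and 166 to 396 CPM (0.01, SE 0.33). The wide ranges of the last pair followed the sheets, as described further on. Slc39a12, a zinc transporter, was the identity gene with the lowest level. Blast-boldine rats had 4.08, 6.26 and 15.3 CPM as lowest, median and highest values, and blast-control rats 4.17, 5.47 and 28.0 CPM. Most rats of both groups lay below 7 CPM, and blast-boldine rat 12 and blast-control rats 4 and 7 lay above. Its log2 fold change was -0.56 (SE 0.49), with 0.17 when rat 7 was left out and -0.91 when rat 12 was. The summed level of 7 choroid plexus markers was 1290 CPM in rat 7, 1333 CPM in rat 12 and 16.1 CPM in rat 4; its part in the Slc39a12 values was not tested.

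No gene of metabolism passed the test between treatments either. Aldh1l1, a folate enzyme used to label astrocytes, had 37.9, 49.4 and 62.7 CPM in blast-boldine rats and 44.0, 59.0 and 64.8 CPM in blast-control rats without rat 6. The groups overlapped when the sheets were pooled. Within sheet 2 the blast-boldine rats had 37.9 to 39.0 CPM and the blast-control rats 44.0 and 45.1 CPM (rat 6 had 3 counts), and within sheet 1 the groups overlapped. The exact permutation p was 0.498 over all assignments of the 12 rats and 0.04 within sheets, the same with and without rat 6, and the edgeR log2 fold change with the sheet as a term and without rat 6 was -0.10 (SE 0.06, adjusted p 0.898). It was the only identity gene of 21 with a permutation p under 0.05 within sheets, a level that 5.18% of all genes tested reached. Aldoc, a glycolytic aldolase, and Acsbg1, which activates fatty acids, were at 0.02 (SE 0.33) and -0.02 (SE 0.26) on the log2 scale. Ppp1r3c, which directs a phosphatase to glycogen, had 0.06 (SE 0.16), and Ndrg2, a cytoplasmic protein of astrocytes, -0.06 (SE 0.34).

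Among receptors, regulators and secreted proteins, log2 fold changes were -0.05 (SE 0.62) for Sox9, the transcription factor of astrocyte fate, and -0.11 (SE 0.19) for Fgfr3, a receptor for fibroblast growth factors. They were -0.14 (SE 0.26) for Ntsr2, a neurotensin receptor, -0.06 (SE 0.27) for S100b, a calcium-binding protein, and -0.00 (SE 0.18) for Gpc5, a glypican. Clu, a secreted chaperone, had -0.11 (SE 0.24), Cst3, a secreted protease inhibitor, -0.01 (SE 0.38), and Sparc, a matrix protein, -0.02 (SE 0.19). Each of these intervals spans 0. Sparcl1, a secreted protein that promotes synapse formation, had -0.42 (SE 0.34) with 12 rats and 0.08 (SE 0.16) without rat 6, whose 463 counts gave 7334 CPM against 1576 to 2560 CPM in the other rats.

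Stat3, Cp and Cd44 were the reactive genes at the highest levels. Stat3, the transcription factor on which gp130 cytokines converge, was the steadiest member, with a coefficient of variation of 4.55% in blast-boldine rats and 4.88% in blast-control rats without rat 6. It had 62.7, 66.8 and 69.9 CPM as lowest, median and highest values in blast-boldine rats and 66.0, 71.5 and 74.8 CPM in blast-control rats. The groups overlapped, but 0 of 6 blast-boldine rats lay above the blast-control median. The log2 fold change in edgeR was -0.10 (SE 0.08) without rat 6 and -0.07 (SE 0.11) with it, both at an adjusted p of 1.0. The exact permutation p was 0.0606 without rat 6 and 0.02 within sheets, but with rat 6, at 47.5 CPM from 3 counts, it was 0.989 and the mean log2 CPM was no longer lower in blast-boldine rats.

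Cp, ceruloplasmin, a copper ferroxidase that astrocytes carry on their surface, is on the plus strand of chromosome 2 (102439624 to 102498075 in mRatBN7.2). It had 23.5, 26.9 and 38.3 CPM in blast-boldine rats and 15.1, 22.8 and 28.5 CPM in blast-control rats without rat 6. The ranges overlapped, and all 6 blast-boldine rats lay above the blast-control median. The log2 fold change was 0.31 (SE 0.18, 95% interval -0.10 to 0.71) without rat 6 and 0.22 (SE 0.24) with it, since rat 6 had 79.2 CPM from 5 counts. Cd44, the hyaluronan receptor, had 18.7 to 32.4 CPM and 18.7 to 33.3 CPM in the 2 groups, at a log2 fold change of -0.04 (SE 0.20). Nes, nestin, an intermediate filament of precursors and reactive astrocytes, had 9.97 to 27.8 and 9.27 to 32.3 CPM (0.05, SE 0.34).

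Osmr, the receptor chain for oncostatin M, is on the minus strand of chromosome 2 (55908852 to 55949697). In sheet 1 the blast-boldine rats had 0.767, 0.964 and 1.09 CPM and the blast-control rats 0.667, 0.681 and 0.724 CPM. In sheet 2 the blast-boldine rats had 2.14, 2.23 and 2.88 CPM and the blast-control rats 1.18 and 2.46 CPM, and rat 6 had 0 counts. Within sheet 1 the groups did not overlap, and within sheet 2 they did. The exact permutation p was 0.119 over 12 rats and 0.253 without rat 6, and 0.035 within sheets in both cases. The edgeR log2 fold change was 0.59 (SE 0.43) with 12 rats and 0.41 (SE 0.22, adjusted p 0.898) with the sheet as a term and without rat 6. Without blast-control rat 5, which had the highest blast-control level, it was 1.03 (SE 0.39, unadjusted p 0.0211, adjusted p 1.0 in edgeR).

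Lcn2, lipocalin 2, a secreted protein that binds iron carriers, is on the minus strand of chromosome 3 (15680688 to 15684033) and was too scarce for the edgeR filter. The blast-boldine rats had 18, 15, 6, 7, 13 and 2 counts, or 1.04, 1.49, 0.462, 0.316, 0.597 and 0.0995 CPM, in the order of rats 12, 17, 19, 20, 32 and 35. The blast-control rats had 18, 1, 2, 0, 2 and 0 counts, or 0.395, 0.0987, 0.205, 0, 0.105 and 0 CPM, in the order of rats 1, 4, 5, 6, 7 and 9. The 4 highest values were those of blast-boldine rats 17, 12, 32 and 19, and the groups overlapped below them. The mean was 0.667 ± 0.511 CPM in blast-boldine rats and 0.161 ± 0.150 CPM in the 5 blast-control rats. The exact permutation p was 0.0216 with 12 rats and 0.039 without rat 6, and within sheets it was 0.03 and 0.035. DESeq2 without rat 6 gave 1.86 on the log2 scale (SE 0.78, unadjusted p 0.0167, adjusted p 1.0). The choroid plexus marker sum was 1333, 939 and 1083 CPM in blast-boldine rats 12, 17 and 32, the 3 with the most Lcn2, and 9.77 CPM in rat 19, the next; it was 25.2 and 52.8 CPM in the other blast-boldine rats. It was 705 CPM in blast-control rat 1, which had the highest blast-control level of Lcn2, and 1290 CPM in blast-control rat 7, where Lcn2 was at 0.105 CPM. Its part in the Lcn2 values was not tested.

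At a permutation p under 0.05, Lcn2 was the only reactive gene of 11 over all assignments of the 12 rats and without rat 6, where 2.28% and 2.06% of all genes tested reached that level. Within sheets they were Lcn2 and Osmr with 12 rats, and Lcn2, Osmr and Stat3 without rat 6, where 5.18% and 5.12% of all genes did. Of these 3, Stat3 was lower in blast-boldine rats and the other two were higher. The shares cover only genes that passed the filter on low counts, which Lcn2 did not, so Lcn2 is not among the genes they count. The permutation p-values were not adjusted for the 32 members compared.

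The remaining reactive genes were measured from few counts. Timp1, an inhibitor of metalloproteinases, had 0.405 to 2.25 CPM in blast-boldine rats and 0.395 to 1.42 CPM in blast-control rats without rat 6, at a log2 fold change of 0.22 (SE 0.44), and -0.15 when blast-boldine rat 32 was left out. Steap4, a metalloreductase, had 0.693 to 1.76 and 0.614 to 1.58 CPM (0.25, SE 0.27). S1pr3, a receptor for sphingosine 1-phosphate, had 5.66 to 9.65 and 4.51 to 11.8 CPM (-0.02, SE 0.27), and Ptx3, a pentraxin of the acute phase, 0.597 to 2.0 and 0.889 to 1.51 CPM (0.02, SE 0.27). The ranges of blast-boldine and blast-control rats overlapped for each. The 3 highest Steap4 values were those of blast-boldine rats. In sheet 2 without rat 6, S1pr3 had 5.66 to 8.73 CPM in blast-boldine and 4.51 to 5.23 CPM in blast-control rats. Serpina3n, a serine protease inhibitor often used as a marker of reactive astrocytes, had 0 to 5 counts per library and 2 blast-boldine and 3 blast-control rats at 0, and a difference was not detectable at this depth.

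Many members were apart between sheets, where none was apart between treatments. Without rat 6, 13 of 21 identity genes and 5 of 9 tested reactive genes had no overlap between sheets, beside 48.6% of all genes. Sox9 had 36.3 to 51.9 CPM in sheet 1 and 172 to 203 CPM in sheet 2, 4.34 times as much, in rats of both treatments. Slc4a4, Atp1b2, Sparcl1, Nes and Osmr were also higher in sheet 2 with no overlap. Aqp4, Aldh1l1, Fgfr3, Aldoc, Ndrg2, Mlc1, Ntsr2, Ppp1r3c and Acsbg1 were higher in sheet 1, as were Cd44, Timp1 and S1pr3. Timp1 in sheet 2 was at 0.34 times its level in sheet 1, and Mlc1, Ndrg2 and Cst3 at 0.48, 0.49 and 0.50 times, the last with overlap. Identity genes thus lay on both sides, with Sox9 and Mlc1 apart in opposite directions. Within both sheets blast-boldine rats had the lower mean log2 CPM for 6 of 21 identity genes and the higher for 2, beside 23.4% and 28.5% of all genes. Of the 11 reactive genes, whose 2 untested members are counted here, 1 was lower in both, Stat3, and 4 were higher in both, Osmr, Cp, Steap4 and Lcn2.

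**Figure D3:**
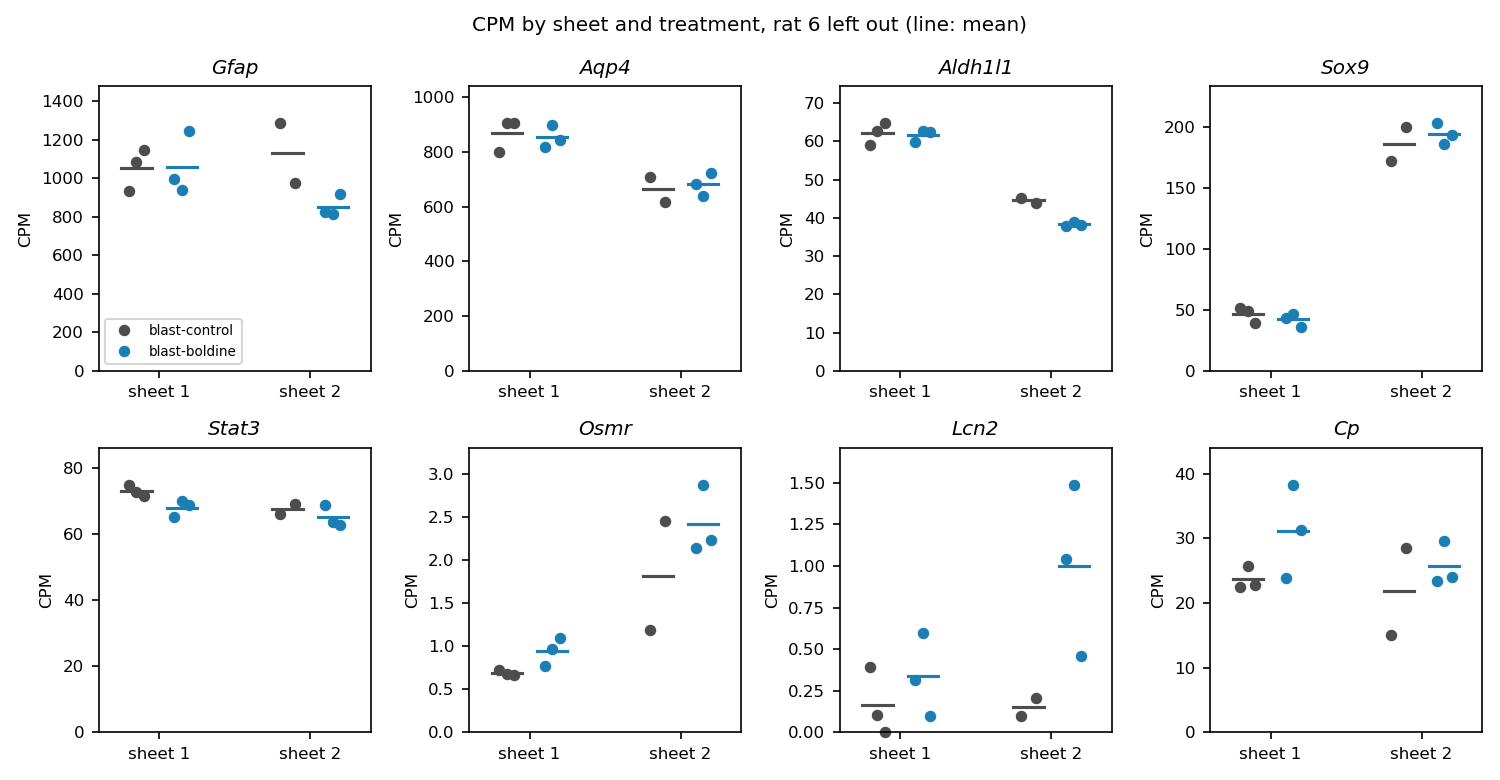
CPM of Gfap, Aqp4, Aldh1l1, Sox9, Stat3, Osmr, Lcn2 and Cp, split by sheet and treatment, with 1 point per rat, rat 6 left out and a line at each mean. Sox9 is at 36.3 to 51.9 CPM in sheet 1 and 172 to 203 CPM in sheet 2 in both treatments, and the blast-boldine points of Gfap lie under the blast-control points in sheet 2 but not in sheet 1.

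Other gene lists of astrocytes, written down with earlier results of these data known, were tested in the same fit. Of 28 further identity genes tested, 0 had an unadjusted p under 0.05 in edgeR, and the 3 with the smallest p were Apoe at a log2 fold change of -0.39 (SE 0.29), Gja1 at -0.24 (SE 0.21) and Bcan at -0.16 (SE 0.16). Apoe carries lipids, Gja1 is connexin 43, the main connexin of astrocytes, and Bcan is a matrix proteoglycan. Apoe was at -0.05 (SE 0.17) without rat 6, which had 4705 CPM from 297 counts. Of 8 genes of the endfoot complex, 0 passed that level with 12 rats, and 1 did without rat 6, Sntb1, beside 1.4% of all genes. With the sheet as a term, 2 of 8 did with 12 rats, Sntb1 and Lama1, beside 3.85% of all genes, and without rat 6 it was Sntb1 alone, beside 5.35%. Sntb1, a syntrophin, had -0.36 (SE 0.21) with 12 rats and treatment alone, and -0.40 (SE 0.18, unadjusted p 0.0438) without rat 6. Lama1, a laminin chain, had 0.42 (SE 0.24) with 12 rats and treatment alone.

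Of 26 further reactive genes tested, 2 had an unadjusted p under 0.05 in edgeR, beside 1.07% of all genes. Both were higher in blast-boldine rats, as were 0.552% of all genes at that level. Vim, vimentin, the intermediate filament that partners Gfap in reactive astrocytes and is also made by endothelial, ependymal and meningeal cells, had 61.4, 82.7 and 111 CPM as lowest, median and highest values in blast-boldine rats. In blast-control rats without rat 6 it had 48.0, 54.5 and 71.2 CPM. The levels of 5 of the 6 blast-boldine rats exceeded those of all 6 blast-control rats. The log2 fold change was 0.55 (SE 0.19, unadjusted p 0.0122, adjusted p 1.0) and 0.50 (SE 0.16, unadjusted p 0.00927) without rat 6, which had 1 count. The exact permutation p without rat 6 was 0.013, and 0.005 within sheets. A permutation p under 0.05 was reached by 2.06% and 5.12% of all genes tested in these 2 ways. Vim was named for its small edgeR p in these same rats, so its permutation p is not separate evidence. S100a10, an annexin partner, had 12.9 to 18.6 CPM against 8.79 to 13.0 CPM, a log2 fold change of 0.33 (SE 0.15, unadjusted p 0.0478, adjusted p 1.0). Clcf1, a cytokine of the gp130 family, had -0.46 (SE 0.28). Meningeal and ependymal markers were also higher in blast-boldine rats for 2 of 7 and 1 of 6 genes at an unadjusted p under 0.05, Col3a1, Slc22a6 and Ccdc153. The meningeal sum ran from 69.7 to 287 CPM in blast-boldine rats and from 48.9 to 238 CPM in blast-control rats without rat 6. The ependymal sum ran from 24.4 to 57.0 and from 23.7 to 54.2 CPM. No gene of either list was at 0 in all libraries. Their part in the Vim and S100a10 values was not tested.

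In the gp130 and Stat3 pathway, 0 of 11 genes tested had an unadjusted p under 0.05. Jak2, a kinase bound to the receptor, had 81.3 to 102 CPM in blast-boldine rats and 71.6 to 97.5 CPM in blast-control rats without rat 6, at a log2 fold change of 0.22 (SE 0.12). Socs3, the feedback inhibitor that Stat3 induces, had 0.367 to 0.992 and 0.410 to 1.18 CPM (-0.40, SE 0.29), and Cntfr, the receptor for ciliary neurotrophic factor, 35.8 to 52.9 and 45.0 to 82.7 CPM (-0.21, SE 0.17). With the sheet as a term and without rat 6, 2 of the 11 did, beside 5.35% of all genes, Jak2 at 0.17 (SE 0.06, unadjusted p 0.019) and Tyk2, a related kinase, at -0.17 (SE 0.08, unadjusted p 0.0488), both with an adjusted p of 0.898. The ligands Il6, Lif and Osm were too scarce to be tested.

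**Figure D4:**
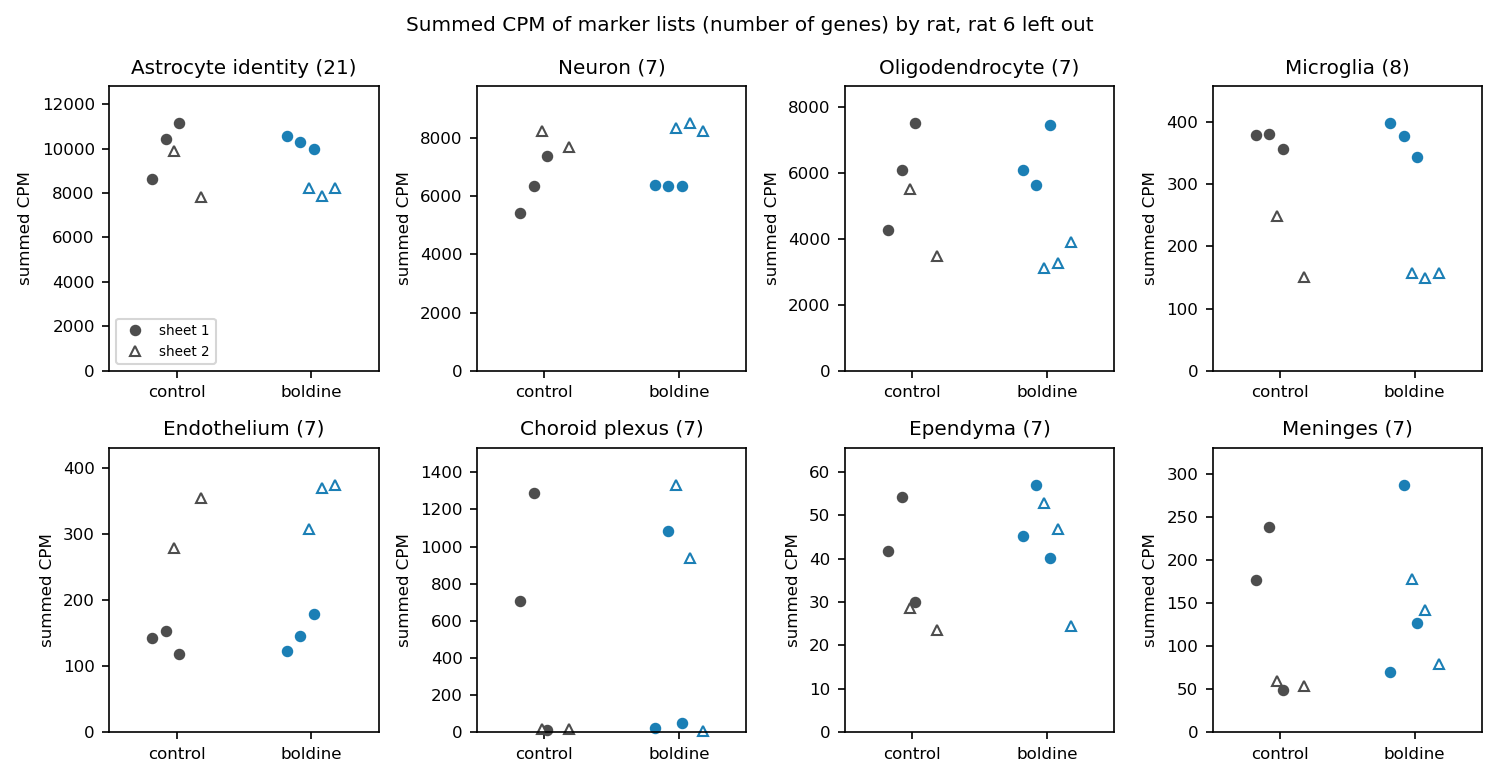
Summed CPM of the astrocyte identity genes and of marker genes of other cell types, 1 panel per list, with 1 point per rat, treatment on the horizontal axis, sheet by symbol and rat 6 left out. Choroid plexus sums are above 700 CPM in 3 blast-boldine and 2 blast-control rats and at most 52.8 CPM in the others, and the endothelial sums are 118 to 179 CPM in sheet 1 and 279 to 375 CPM in sheet 2.

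Sums of markers of other cells were the measure of what else the samples held. The 7 neuronal markers summed to between 5431 and 8498 CPM in the 11 rats. Choroid plexus markers reached 1333 CPM in blast-boldine and 1290 CPM in blast-control rats. In edgeR with 12 rats, all 7 endothelial genes had a log2 fold change above 0, beside 51.3% of all genes. All 8 microglial genes lay below 0, at a median of -0.16, and 5 of 8 did so without blast-boldine rat 12. None of the 7 choroid plexus, 7 neuronal, 8 microglial, 7 oligodendrocyte and 7 endothelial genes had an unadjusted p under 0.05 between treatments in edgeR with treatment alone, with 12 rats or without rat 6. With the sheet as a term, 1 of the 8 microglial genes was lower in blast-boldine rats at that level, with 12 rats (unadjusted p 0.00807) and without rat 6 (0.00589), and without rat 6 1 of the 7 neuronal genes was higher (0.0134), beside 3.85% of all genes with 12 rats and 5.35% without rat 6.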

How the data were processed

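Conditions came from the sample labels, and times from the study's methods. The deposited values are raw counts per gene: per the labels and the study's methods, the authors removed PCR duplicates, aligned reads to mRatBN7.2 with STAR 2.7.11b and counted them on RefSeq exons by strand with featureCounts (Subread 2.0.1). Reads with several alignments were allowed at alignment, but the counting command in the study's methods holds no option to count them. Near-identical copies can therefore lose counts, and how far this touched the members was not tested. Cp overlaps Hps3 by 36 exon bases on the opposite strand.

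The counts went into edgeR (4.0.16, under R 4.3.3) for its quasi-likelihood test, with TMM factors, filterByExpr at a minimum of 10 counts, treatment as the only term, all 12 rats, and Benjamini-Hochberg adjustment over all 12325 genes kept at 0.05. CPM are TMM-scaled counts, log2 CPM adds a prior count of 2, and TPM used summed exon lengths. For each member and each gene of the other lists, the group means of log2 CPM were set against each other by permutation. It was exact and two-sided, over 924 assignments of the rats, 462 without rat 6, and 400 and 200 within sheets. Alternatives were DESeq2 1.42.0, RLE size factors, no filter, the sheet as a term, and leaving out rat 6 or each rat in turn. The methods were tested on simulated data. Values per rat were handled in Python 3.11.15 (scipy 1.17.1, pandas 2.3.3, numpy 2.4.6) and drawn in matplotlib 3.10.9.

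The members and lists were chosen with earlier results of these data known. All members are named, with the 3 genes of the smallest unadjusted p from each other astrocyte list, of which 1 is not reported here. Totals per library are 10148474 to 40850106 counts, except 74008 for rat 6. Columns of samples not used numbered 0.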

Additional observations from a re-analysis of the deposited data

Results flagged for a closer look

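In the 64 groups of 6 rats formed by 32 members and 2 treatments, 5 had a rat far from the others, measured as the gap to its nearest neighbour over the whole range in CPM. Chance gives about 1 in 20 groups, and 4 of the 5 were the shallow library of blast-control rat 6. There, the ratio was 0.848 for Sparcl1 (7334 CPM, others 1576 to 2452), 0.792 for Cp (79.2 CPM from 5 counts, others 15.1 to 28.5), 0.675 for Stat3 (47.5 CPM from 3 counts, others 66.0 to 74.8) and 0.672 for Gpc5 (15.8 CPM from 1 count, others 69.4 to 95.5). The other was Slc39a12 in blast-boldine rat 12, with a ratio of 0.744 (15.3 CPM from 264 counts, others 4.08 to 6.93).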

How the results depend on the processing

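No member and no gene had an adjusted p under 0.05 under any alternative tried. With an unadjusted p under 0.05, 1 reactive gene was counted with no filter on low counts (Lcn2, p 0.0249), in DESeq2 without rat 6 (Lcn2) and without blast-control rat 5 (Osmr), and 0 to 1 when each rat was left out. Of all genes, 1.62%, 1.78% and 1.71% were at that level in the first 3 settings, and 0.682% to 1.71% when each rat was left out. Permutation p under 0.05 within sheets, with and without rat 6, were counted for 1 and 1 identity genes and 2 and 3 reactive genes, beside 5.18% and 5.12% of all genes tested. For Stat3, whose difference in mean log2 CPM turned without rat 6, the permutation p was then 0.0606, and 0.02 within sheets. Its edgeR log2 fold change was below 0 with and without rat 6. The 12 named genes of other astrocyte lists kept their direction and stayed above an adjusted p of 0.05 in all 210 alternative values. Not all kept their side of an unadjusted p of 0.05. The further reactive genes at that level numbered 2 with 12 rats, beside 1.07% of all genes. They numbered 1 with RLE size factors, with no filter or in DESeq2, beside 1.09%, 1.62% and 0.542%. With the sheet as a term they numbered 3, of which 1 was lower in blast-boldine rats, beside 3.85% with 12 rats and 5.35% without rat 6. The 95% intervals of the log2 fold changes and the shallow library of rat 6 limit the results.

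Some members changed sign. In DESeq2 they were -0.0085 for Aqp4, 0.0072 for Cst3 and -0.029 for Ptx3, and with RLE size factors -0.00045 for Mlc1 and -0.0067 for Ptx3. In DESeq2 without rat 6 they were -0.039 for Aqp4, 0.20 for Sox9, -0.13 for Aldoc, -0.093 for Mlc1, 0.082 for Sparcl1 and 0.018 for Sparc. With the sheet as a term they were -0.040 for Atp1b2, -0.012 for Aldoc, -0.039 for Mlc1, 0.0089 for Sparc, 0.093 for S1pr3 and -0.020 for Ptx3. With the sheet as a term and without rat 6 they were -0.0018 for Aqp4, -0.090 for Atp1b2, -0.068 for Aldoc, -0.058 for Mlc1, 0.037 for Sparcl1, 0.047 for Sparc, 0.083 for S1pr3 and -0.025 for Ptx3. Why they turned was not tested, and the cause was not tested for the counts above.

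Leaving out each rat in turn, the log2 fold change ran from -0.12 to 0.072 for Acsbg1, -0.13 to 0.19 for Aldoc, -0.040 to 0.072 for Aqp4, -0.068 to 0.35 for Atp1b2, -0.15 to 0.041 for Cd44, -0.20 to 0.21 for Cst3, -0.077 to 0.066 for Gpc5, -0.14 to 0.055 for Kcnj10, -0.13 to 0.15 for Mlc1, -0.21 to 0.12 for Ndrg2 and -0.11 to 0.37 for Nes. It ran from -0.021 to 0.12 for Ppp1r3c, -0.11 to 0.18 for Ptx3, -0.17 to 0.066 for S100b, -0.17 to 0.12 for S1pr3, -0.91 to 0.17 for Slc39a12, -0.033 to 0.11 for Slc4a4, -0.27 to 0.27 for Sox9, -0.090 to 0.067 for Sparc, -0.52 to 0.083 for Sparcl1 and -0.15 to 0.39 for Timp1. No paired analysis was possible because the groups share no replicate numbers.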
